A study of Mus musculus with 12 samples.

Results

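The microtubule genes of young neurons were described in neurospheres from wild type and *Ythdf2-/-* mouse embryos. The 10 genes were taken by symbol from a list tied to neurite outgrowth: *Dcx*, *Dclk1*, *Map2*, *Mapt*, *Map1b*, *Tubb3*, *Tubb2b*, *Stmn1*, *Stmn2* and *Rtn1*. All 10 were among the 24525 genes of the raw count tables, and 10 of 10 passed the filter on low counts, as did 13112 genes in all. The list was chosen by hand with the expression levels of these genes in the same 6 libraries in view, wild type replicate 3 and the genotype contrast included, so the levels of the 10 genes and their genotype differences are given as a description, without a test.

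A young neuron extends neurites on bundles of microtubules, which are polymers of alpha- and beta-tubulin. Microtubule-associated proteins such as doublecortin, tau and the MAP1 and MAP2 families bind and stabilise these polymers, while stathmins bind free tubulin and favour disassembly. *Dcx* and *Tubb3* are widely used to mark newly born neurons, whereas several other genes of this kind are also expressed by dividing progenitors.

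Neurospheres are floating cultures of neural stem and progenitor cells (NSPCs). Here they came from E14.5 brains of C57BL/6 embryos, were used at passage P1, and grew in both groups with 20 ng/ml EGF and 10 ng/ml bFGF. The 3 wild type libraries carry the intact gene. The 3 *Ythdf2-/-* libraries lack the first exon of *Ythdf2*, an m6A reader that promotes decay of m6A-marked mRNA, after deletion by a ubiquitously expressed Cre, so every cell type of the embryo carried the deletion and an earlier requirement in the embryo cannot be told apart from one in culture. The libraries are the input RNA of an m6A immunoprecipitation, and the immunoprecipitated samples were not analysed here.

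Sequencing depth ranged from 11029827 to 13185778 counted reads, with 16327 to 16593 genes detected. *Ythdf2* had 71.9, 73.3 and 91.4 CPM (reads scaled to a common library size with TMM factors) in wild type and 11.7, 14.7 and 11.1 CPM in *Ythdf2-/-*. The mean was therefore 78.9 ± 10.9 CPM (SD, n = 3) against 12.5 ± 1.91 CPM (n = 3), or 15.8% of wild type (log2 fold change −2.66 ± 0.183 SE, edgeR quasi-likelihood test, adjusted p = 0.0547). When single libraries were left out the log2 fold change stayed between −2.78 and −2.54, while the adjusted p of edgeR's quasi-likelihood test ran from 0.0203 (without wild type replicate 3) to 0.866, and DESeq2 on 6 libraries gave an adjusted p of 1.65e-30. Wild type replicate 3 stood apart from the rest: its mean Spearman correlation with the other libraries was 0.90, against 0.962 to 0.970 for the others. Reads on 4 Y-linked genes summed to 1111, 1638 and 2147 in wild type replicates 1 and 2 and *Ythdf2-/-* replicate 3. They summed to 0 or 1 in the remaining libraries, so over 6 libraries their presence did not follow genotype. Without wild type replicate 3, both wild type libraries had such reads, and of the *Ythdf2-/-* libraries only replicate 3 did. In that comparison genotype and Y-linked reads were thus partly confounded. Genotype differences of the 10 genes and the counts of the pathway lists are given below with and without wild type replicate 3. In bulk RNA, fewer cells of a type and less RNA per cell cannot be told apart.

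To compare the 10 genes with each other, reads were divided by transcript length (RPKM, that is CPM per kilobase). On that scale *Tubb2b* was highest, with a median over the 6 libraries of 439 RPKM (348 to 543). *Stmn1* followed with 341 RPKM (167 to 464), then *Map2* with 186 RPKM (169 to 237) and *Rtn1* with 103 RPKM (90.03 to 122). *Mapt* had 67.95 RPKM (46.5 to 107) and *Dclk1* had 57.0 RPKM (44.5 to 69.8). These 6 genes were thus abundant in cultures of progenitors. The 4 genes lowest per length were *Tubb3* with 11.98 RPKM (4.16 to 44.6), *Map1b* with 4.59 RPKM (3.12 to 52.6), *Dcx* with 1.19 RPKM (0.930 to 35.1) and *Stmn2* with 0.54 RPKM (0.04 to 0.81). Among neighbours in this order, the ranges over libraries did not overlap for *Map2* above *Rtn1* and for *Dcx* above *Stmn2*. All other neighbouring pairs overlapped. Without wild type replicate 3 the order of the medians was the same, from 431 RPKM for *Tubb2b* to 0.31 RPKM for *Stmn2*, and 6 of the 9 neighbouring pairs did not overlap. With 6 libraries, *Rtn1* and *Mapt* exchanged places when the union of annotated exons served as length. The medians of *Dclk1*, *Map2* and *Rtn1* were then 27.2, 113 and 59.5 RPKM, while those of *Tubb2b* and *Stmn1* were unchanged.

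**Figure D1:**
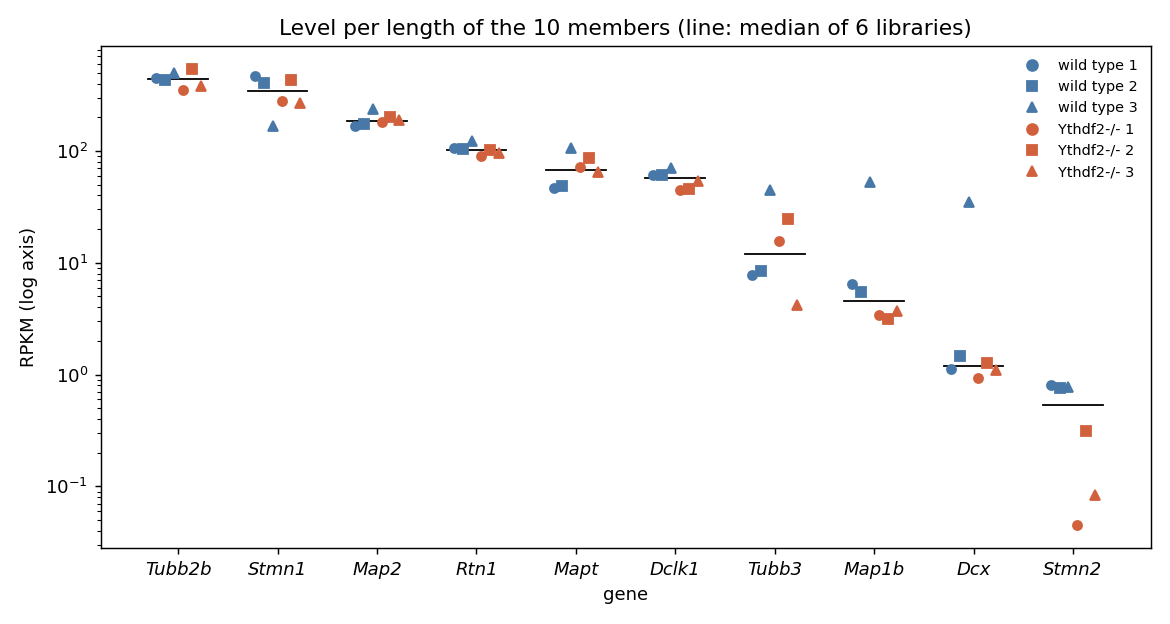
Level per length (RPKM, log axis) of the 10 genes in each library, ordered by the median of 6 libraries (black lines). *Tubb2b* was highest at a median of 439 RPKM and *Stmn2* lowest at 0.54 RPKM, and wild type replicate 3 (blue triangles) lay far above the other libraries for *Dcx* and *Map1b*.

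The microtubule-binding proteins of the set are *Dcx*, *Map1b*, *Dclk1*, *Map2* and *Mapt*. *Dcx* encodes doublecortin, which binds between protofilaments and is required for the migration of young neurons. It had 10.0, 13.1 and 315 CPM in wild type replicates 1, 2 and 3 and 8.36, 11.3 and 9.90 CPM in the *Ythdf2-/-* replicates. Wild type replicate 3 was the only high library, with 3441 reads, 24.0 times the CPM of the next library, and the other 5 libraries overlapped. The wild type mean was 113 ± 175 CPM (n = 3) with that library and 11.6 ± 2.2 CPM (n = 2) without it, beside 9.86 ± 1.49 CPM (n = 3) in *Ythdf2-/-*. *Ythdf2-/-* over wild type gave a log2 fold change of −3.51 ± 1.39 (SE) with 6 libraries and −0.23 ± 0.216 with 5.

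*Map1b* encodes a large microtubule-associated protein of growing axons. It had 76.9, 65.3 and 623 CPM in wild type and 40.4, 37.0 and 43.5 CPM in *Ythdf2-/-*. As for *Dcx*, wild type replicate 3 was far above the rest, here by 8.11-fold over the next library. Unlike *Dcx*, both other wild type libraries also lay above all 3 *Ythdf2-/-* libraries. The wild type mean was 255 ± 319 CPM with 3 libraries and 71.1 ± 8.15 CPM with 2, against 40.3 ± 3.25 CPM in *Ythdf2-/-*. The corresponding log2 fold changes were −2.66 ± 0.922 and −0.82 ± 0.121, so the direction was the same without wild type replicate 3 while the size was smaller.

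RefSeq promoter windows, from 250 bases before to 50 after a start site, were at hand for 6 of the 10 genes (*Dcx*, *Dclk1*, *Map2*, *Map1b*, *Tubb3* and *Rtn1*). Among these 6 genes, TATAAA occurred for *Dcx* and *Map1b*, and it occurred on either strand in 13.6% of 32851 promoters of 300 bases. The 2 matches are shown with the letters TATAAA in capitals, 5′ to 3′ on the strand of the gene, and begin 98 and 99 bases before an annotated start. The coordinates are of GRCm38.p6, and both genes lie on the minus strand (*Dcx* at chrX:143855842-143933396, *Map1b* at chr13:99421464-99516602).
*Dcx*, chrX:143933300-143933329: tttcctgtgcgtTATAAAcgaaacctttct
*Map1b*, chr13:99516684-99516713: gcctagtctccaTATAAAcggcaccgcctc
The *Dcx* window lies inside the annotated span of the gene, and from the second *Dcx* start of the promoter table the same match begins 193 bases upstream. The *Map1b* window lies upstream of the gene. The E-box CAGCTG, which is its own reverse complement and was in 16.3% of promoters, had no match in the windows of the 6 genes. A second E-box sequence, CAGATG (or CATCTG on the other strand), was in 17.2% of promoters and matched once for *Map1b* and once for *Rtn1*. The *Map1b* match is shown in capitals and begins 213 bases before the start.
*Map1b*, chr13:99516798-99516827: aatgatttgctgCAGATGacatcagccctg
The GC-box core GGGCGG, searched on both strands, which was in 35.7% of promoters, matched 5 times for *Map2*, 2 times each for *Tubb3* and *Map1b* and 4 times over the 3 annotated starts of *Rtn1*. The *Tubb3* match nearest the start begins 46 bases before it, on the plus strand.
*Tubb3*, chr8:123411495-123411524: atcagccagcgaGGGCGGggcagcctctta
CCAAT, also searched on both strands and present in 37.4% of promoters, was found for *Dcx*, *Dclk1*, *Tubb3* and *Rtn1*. None of these matches shares letters with a match of another of the 5 motifs. They describe the letters of the windows only.

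*Dclk1* encodes a doublecortin-like kinase that binds microtubules through a doublecortin domain. It had 380, 384 and 439 CPM in wild type and 280, 284 and 336 CPM in *Ythdf2-/-*. All 3 wild type libraries were above all 3 *Ythdf2-/-* libraries, and wild type replicate 3 exceeded the next library by 1.14-fold, against 24.0-fold for its relative *Dcx*. The means were 401 ± 32.7 CPM (382 ± 3.37 CPM without wild type replicate 3) and 299.96 ± 31.7 CPM. The log2 fold change was −0.42 ± 0.148 with 6 libraries and −0.35 ± 0.122 with 5. Over 87 bases its exons overlap the gene *Gm9831* on the opposite strand, and the strand setting of the counting is not given in the sources used here.

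*Map2* encodes the classical dendritic microtubule-associated protein. It had 1024, 1061 and 1440 CPM in wild type and 1106, 1223 and 1156 CPM in *Ythdf2-/-*. Wild type replicate 3 was highest and the other wild type libraries were the 2 lowest, so that *Ythdf2-/-* lay between them. The log2 fold change was −0.02 ± 0.198 with 6 libraries and 0.16 ± 0.130 with 5. *Mapt*, the gene of the axonal protein tau, had the same order of groups with wider gaps. Its levels were 223, 232 and 511 CPM in wild type and 343, 412 and 308 CPM in *Ythdf2-/-*. The wild type mean of 322 ± 164 CPM became 227 ± 6.81 CPM without wild type replicate 3, below the 354 ± 53.2 CPM of *Ythdf2-/-*. The log2 fold change of *Mapt* moved from 0.14 ± 0.355 to 0.64 ± 0.148, the largest difference toward higher levels relative to its SE among the 10 genes.

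**Figure D2:**
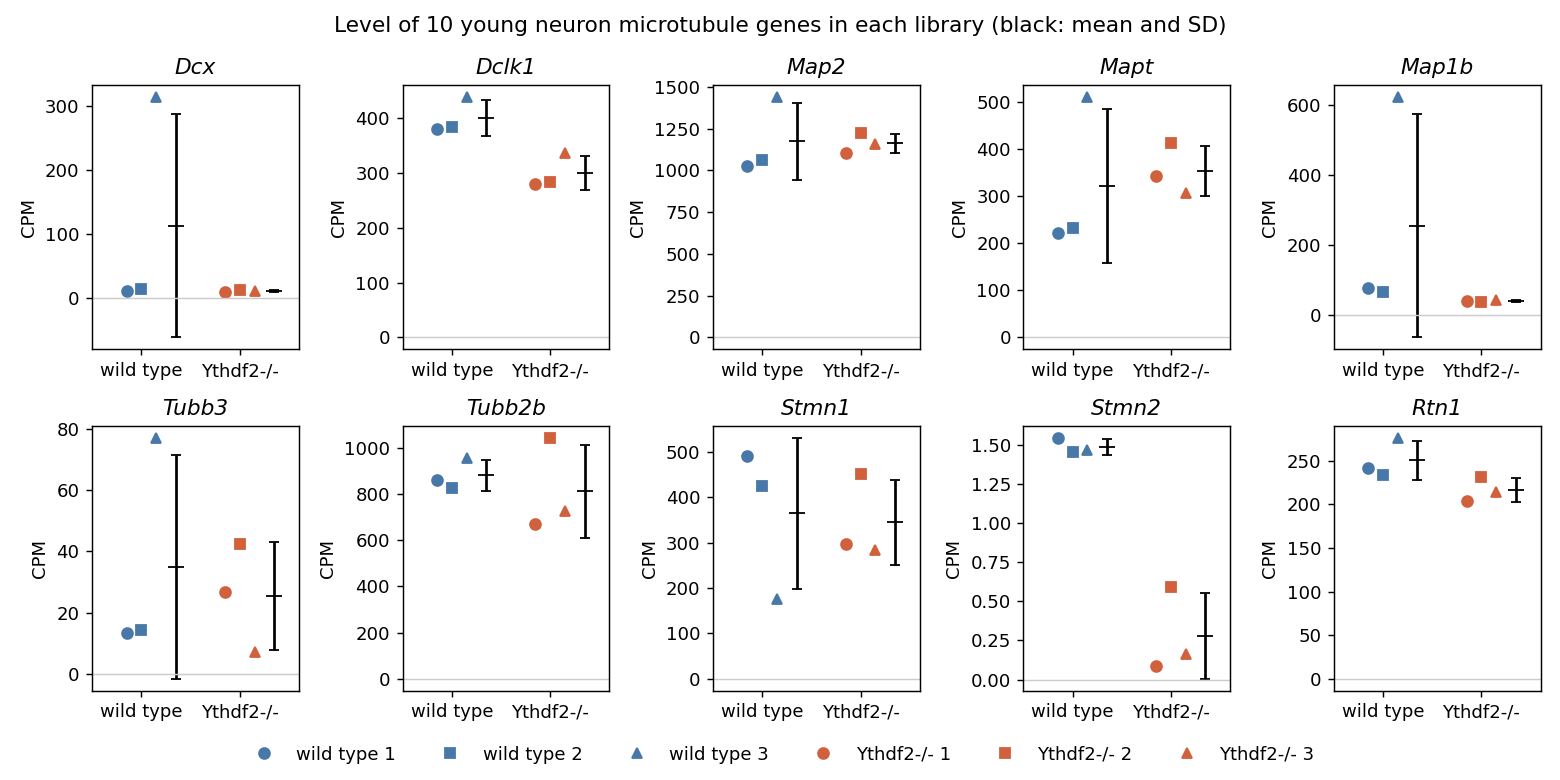
CPM of each gene in each library, with the mean and SD of the 3 libraries of each genotype in black. *Dcx*, *Map1b* and *Tubb3* had their highest value in wild type replicate 3 (315, 623 and 76.9 CPM), *Stmn1* its lowest (177 CPM), and the genotypes did not overlap for *Dclk1*, *Map1b*, *Stmn2* and *Rtn1*.

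The 2 beta-tubulins of the set behaved differently from each other. *Tubb3*, the beta-III tubulin largely restricted to neurons in the brain, had 155, 190 and 840 reads in wild type and 314, 572 and 89 reads in *Ythdf2-/-*. In CPM, wild type replicate 3 was highest at 76.9 and wild type replicate 1 stood at 13.3, while the *Ythdf2-/-* replicates had 26.8, 42.4 and 7.16. Its *Ythdf2-/-* libraries differed among themselves by 5.91-fold, with replicate 3 the lowest of all 6 libraries and replicate 2 the second highest. Means were 34.9 ± 36.4 CPM in wild type, 13.9 ± 0.874 CPM without wild type replicate 3, and 25.4 ± 17.6 CPM in *Ythdf2-/-*. For *Tubb3* the log2 fold change turned from −0.45 ± 0.886 to 0.87 ± 0.662, and neither value was larger than 1.5 times its SE. *Tubb2b*, a beta-tubulin of developing cortex, was level by comparison. It had 861, 828 and 959 CPM in wild type and 669, 1043 and 726 CPM in *Ythdf2-/-*, where replicate 2 was the highest of all libraries. The genotype means of 882 ± 68.0 and 813 ± 201 CPM differed by less than the SD in *Ythdf2-/-*, with log2 fold changes of −0.12 ± 0.218 and −0.05 ± 0.214. Of the 50-base words of the *Tubb2b* transcript, 39.3% also occur in transcripts of other genes, 33.4% in *Tubb2a*, so its count is uncertain where reads of both genes could not be separated.

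Neither stathmin followed *Dcx* in wild type replicate 3, where *Stmn1* was low and *Stmn2* was level with the other wild type libraries. *Stmn1*, the stathmin of dividing and immature cells, had 492, 425 and 177 CPM in wild type and 298, 453 and 284 CPM in *Ythdf2-/-*. It was the only one of the 10 genes that was lowest in wild type replicate 3, at 62.2% of the next library up. Means were 365 ± 166 CPM in wild type, 459 ± 46.9 CPM without wild type replicate 3 and 345 ± 93.7 CPM in *Ythdf2-/-*. Without that library the log2 fold change went from −0.08 ± 0.405 to −0.41 ± 0.224, and the 5 remaining libraries overlapped. Transcripts of other genes share 36.5% of the 50-base words of *Stmn1*, most of them *Gm11223* with 34.7%, which makes this count uncertain as well.

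*Stmn2* encodes a stathmin of growth cones that is largely neuronal. It was the rarest of the 10 genes, with 18, 19 and 16 reads in the wild type libraries and 1, 8 and 2 reads in the *Ythdf2-/-* libraries. In CPM these were 1.54, 1.45 and 1.46 against 0.0853, 0.592 and 0.161. The 3 wild type libraries were nearly equal, wild type replicate 3 included, and all lay above the *Ythdf2-/-* libraries. Scaled for library size, the 11 reads of *Ythdf2-/-* amounted to 19.7% of the 53 reads of wild type (95% exact interval 9.27% to 38.1%, which covers counting error only). For *Stmn2* the log2 fold change was −2.33 ± 0.629 with 6 libraries and −2.33 ± 0.667 with 5, so the difference did not rest on wild type replicate 3. Of the 11 *Ythdf2-/-* reads 8 were in replicate 2, and the log2 fold change was −3.47 without that library and −1.93 without *Ythdf2-/-* replicate 1. At so few reads the size of the difference is uncertain by more than the counting interval, and the second deposited table lists 0 for *Stmn2* in every library.

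*Rtn1* encodes a reticulon of the endoplasmic reticulum that is abundant in neurons. It had 242, 234 and 276 CPM in wild type and 204, 231 and 215 CPM in *Ythdf2-/-*. The wild type libraries were all higher, but the nearest values of the genotypes, 234 and 231 CPM, were almost the same. The means of 251 ± 22.2 CPM (238 ± 5.35 CPM without wild type replicate 3) and 217 ± 13.9 CPM gave log2 fold changes of −0.21 ± 0.132 and −0.14 ± 0.10.

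Across the 10 genes, the *Ythdf2-/-* libraries did not overlap and were lower than wild type for 4 (*Dclk1*, *Map1b*, *Stmn2* and *Rtn1*) and were higher for 0. Over all genes tested 4.92% were lower and 5.24% higher in this way, and since the genes were chosen with these libraries known, nothing is read from the count. Without wild type replicate 3, the same 4 genes were lower and 2 were higher (*Map2* and *Mapt*), where 20.1% and 18.8% of all genes did not overlap. With 6 libraries 9 of the 10 log2 fold changes were below 0, and with 5 libraries 7 were. Their median was −0.32 with 6 libraries and −0.18 without wild type replicate 3, beside −0.01 and 0.01 over all genes. For 5 of the 10 genes the log2 fold change with 6 libraries was smaller than its SE.

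With edgeR's quasi-likelihood test and an adjusted p under 0.05, 0 of 13112 genes were called in either direction (0.0%), while 476 genes (3.63%) had an unadjusted p under 0.05. DESeq2 called 6 genes higher (0.0458%) and 25 lower (0.191%), with 4.27% at an unadjusted p under 0.05. A term for Y-linked reads in edgeR gave 13 genes lower (0.0991%) and 0 higher. Weighting the libraries by quality in limma-voom gave wild type replicate 3 a weight of 0.0901 and called 333 genes higher (2.54%) and 299 lower (2.28%). Without wild type replicate 3, edgeR called 0 genes higher and 2 lower (0.0151%), and 2207 (16.6%) had an unadjusted p under 0.05. The common biological coefficient of variation was 0.332 with that library and 0.181 without it. No call is drawn for the 10 genes from these fits, since the same contrast was in view when they were chosen.

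**Figure D3:**
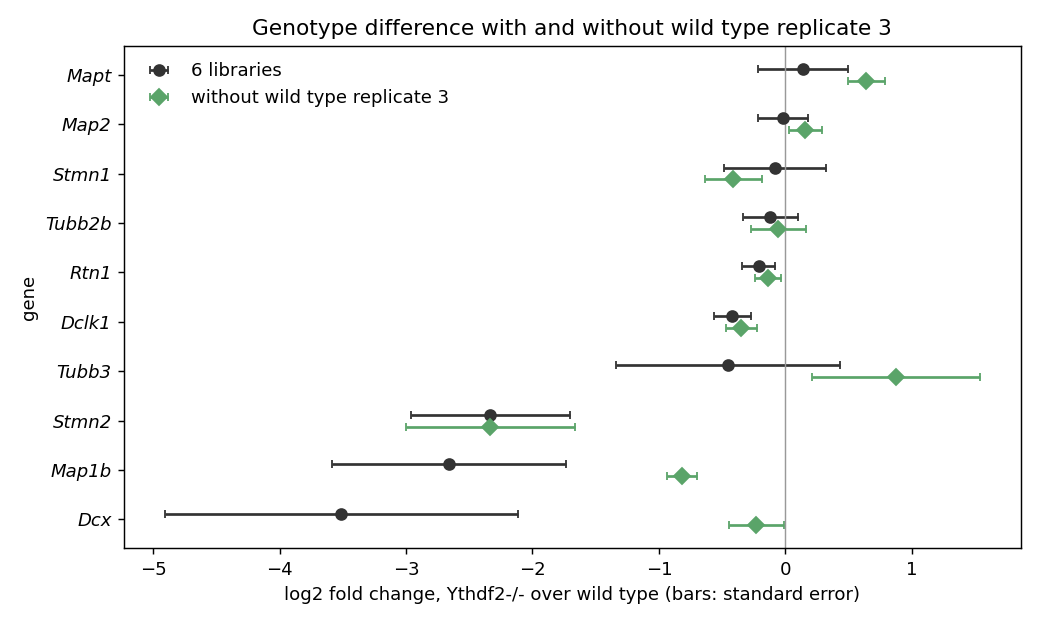
Log2 fold change of *Ythdf2-/-* over wild type for each gene, with 6 libraries (black circles) and without wild type replicate 3 (green diamonds); bars are standard errors. *Dcx* moved from −3.51 to −0.23 and *Map1b* from −2.66 to −0.82, *Stmn2* stayed at −2.33, and *Mapt* moved from 0.14 to 0.64.

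Wild type replicate 3 was set against the other 5 libraries for every gene tested. It was at least 2-fold above each of them for *Dcx* and *Map1b* among the 10 genes and for 545 of 13112 genes (4.16%), and at least 10-fold above for *Dcx* among 22 genes (0.168%). It was merely the highest library for 7 of the 10 genes, beside 33.8% of all genes, and the lowest for 1, beside 34.4%. On the log2 scale, the distance of wild type replicate 3 to the median of the others was 4.95 for *Dcx*, 3.83 for *Map1b* and 2.39 for *Tubb3*, larger than for 99.95%, 99.7% and 98.4% of genes. *Stmn1*, at −1.27, was at the other end, above 8.14% of genes. *Tubb2b*, *Rtn1*, *Map2* and *Dclk1* were shifted by 0.21 to 0.38. The 10 genes together took 0.477% of the counted reads in wild type replicate 3 and 0.297% to 0.384% in the other libraries. These values belong to the contrast that chose the genes and are not a test.

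**Figure D4:**
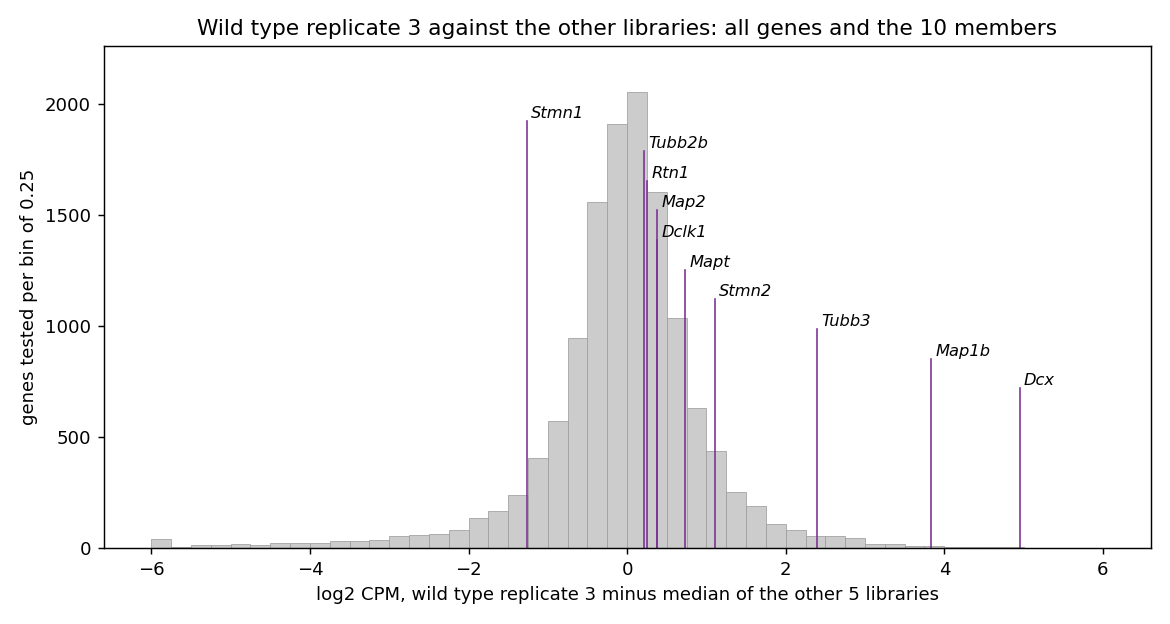
Distribution over 13112 genes of the log2 CPM of wild type replicate 3 minus the median of the other 5 libraries (grey bars, 0.25 wide, with values beyond the axis placed in the end bars); purple lines mark the 10 genes and their heights carry no value. *Dcx* (4.95), *Map1b* (3.83) and *Tubb3* (2.39) lay far to the right and *Stmn1* (−1.27) to the left.

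Among the other 5 libraries the 10 genes varied unequally. The highest library exceeded the lowest by 18.1-fold for *Stmn2*, 5.91-fold for *Tubb3*, 2.08-fold for *Map1b* and 1.85-fold for *Mapt*, and by 1.19-fold for *Map2* and for *Rtn1*, beside a median of 1.46-fold over all genes. *Ythdf2-/-* replicate 2 was the highest of these 5 for *Map2*, *Mapt*, *Tubb3* and *Tubb2b*, as it was for 28.5% of all genes. Wild type replicates 1 and 2 stayed within 1.31-fold of each other for all 10 genes.

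The genes whose log2 CPM was most like that of *Dcx* over the 6 libraries were *Gltp*, *Atg2b*, *Chadl*, *Lin7c* and *Rab6b*, with Pearson's r from 0.996 to 0.998. With 1 library far from the rest such a value rests on that library, and 260 of 13111 genes (1.98%) had an r above 0.95. Over the 5 libraries without wild type replicate 3 the r of these genes was 0.923, 0.915, 0.804, 0.826 and 0.587. *Gltp* had 112 CPM in wild type replicate 3 and 53.0 to 58.6 CPM elsewhere. *Chadl* had 24.8 CPM there and 2.13 to 2.90 CPM elsewhere. Within the set, *Map1b* had an r with *Dcx* of 0.97 over 6 libraries and 0.34 over 5, and *Stmn1* had −0.77 and 0.58. These are descriptions over 6 and 5 points that share library and depth.

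Since *Ythdf2* reads m6A, the density of the core sequence GGACT, part of the consensus around m6A sites, was counted in 1 transcript of each gene. *Mapt* and *Rtn1* had 1.90 and 1.93 matches per kilobase, *Tubb3* 1.61 and *Dclk1* 1.26. The median over 12288 genes was 1.04 (quartiles 0.651 and 1.5). *Tubb2b* (0.917), *Dcx* (0.882), *Map1b* (0.847), *Stmn2* (0.482) and *Map2* (0.320) lay below it, and the *Stmn1* transcript of 1060 bases had 0 matches. *Map1b* with 11808 bases and *Dcx* with 9074 bases had longer transcripts than 98.6% and 96.0% of genes. A match of this sequence does not show that a site is methylated.

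Outside the 10 genes, 88 genes of 7 lists of the same pathway were followed, 84 of which passed the filter. None was called in either direction by edgeR's quasi-likelihood test, and 1 (*Tuba1a*) had an unadjusted p under 0.05, beside 3.63% of all genes. The log2 fold change was above 0 for 33 and below 0 for 51, with a median of −0.07. Without wild type replicate 3 this balance turned to 51 above and 33 below, the median was 0.09, 0 were called and 15 of the 84 had an unadjusted p under 0.05, near the 16.6% of all genes. The adjusted p was 0.999 for every gene of these lists named below with a fold change. Quality-weighted limma-voom called 5 higher (*Nav1*, *Nav2*, *Map1a*, *Marcks* and *Dpysl2*) and 2 lower (*Tuba1a* and *Tuba1b*) of the 84 in *Ythdf2-/-*, beside 2.54% and 2.28% of all genes, where *Nav1*, *Nav2*, *Dpysl2* and *Tuba1b* were named after their values were seen.

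Of the other tubulins, 11 of 12 were tested, with 2 log2 fold changes above 0 and 9 below. Without wild type replicate 3 the counts were also 2 and 9, but of the 2 genes above 0 only *Tuba4a* was shared, and the median went from −0.09 to −0.40. *Tuba1a*, the main alpha-tubulin of young neurons, had 1051, 1036 and 1580 CPM in wild type and 712, 873 and 735 CPM in *Ythdf2-/-*. Its groups did not overlap, and the log2 fold change was −0.66 ± 0.23 with 6 libraries and −0.43 ± 0.143 with 5. *Tubb4a*, a beta-tubulin abundant in myelinating oligodendrocytes, had 15.4, 18.9 and 421 CPM in wild type and 15.4, 26.7 and 7.89 CPM in *Ythdf2-/-*, a pattern like that of *Dcx* with only wild type replicate 3 high. Its log2 fold change of −3.19 ± 1.39 became −0.04 ± 0.471 without that library. *Tubb5*, the beta-tubulin of dividing cells, went the way of *Stmn1*, with 525 CPM in wild type replicate 3 and 877 to 1412 CPM elsewhere, and *Tuba1c* had 1.28 CPM there against 4.02 to 11.3 CPM elsewhere.

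Among other structural microtubule-associated proteins, 12 of 13 were tested, 4 above 0 and 8 below, which turned to 8 above and 4 below without wild type replicate 3 (median −0.07 and 0.08). *Map1a*, the relative of *Map1b* in mature neurons, had 122, 125 and 270 CPM in wild type and 215, 229 and 257 CPM in *Ythdf2-/-*. Its log2 fold change was 0.44 ± 0.334 with 6 libraries and 0.92 ± 0.112 with 5 (adjusted p = 0.140), so the value of *Map1a* was positive where that of *Map1b* was negative. *Map4*, the widely expressed member of the *Map2* and tau family, varied little, from 426 to 597 CPM. *Map7* and *Map6* were both highest in wild type replicate 3, with 29.9 and 54.4 CPM. Of the stathmins and reticulons outside the set, 7 of 7 were tested, 3 above 0 and 4 below in either fit. The genes behind these counts differed, since without wild type replicate 3 *Stmn3* moved above 0 and *Rtn4rl1* below. *Rtn4rl1* had 1.65 CPM in wild type replicate 3 and 12.3 to 14.4 CPM elsewhere. *Rtn3* had 647 CPM in wild type replicate 3 and 478 to 484 CPM elsewhere. *Rtn4*, which encodes the neurite growth inhibitor Nogo, had 774 CPM in wild type replicate 3 and 264 to 402 CPM elsewhere. Its receptor gene *Rtn4r* was low in all libraries, from 0.341 to 3.20 CPM.

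Of the proteins that bind microtubule ends, 14 of 14 were tested, with 5 above 0 and 9 below. Without wild type replicate 3 the balance turned to 12 above and 2 below, and the median from −0.08 to 0.20. *Mapre1*, which encodes the plus-end protein EB1, stayed within 396 to 435 CPM and *Ckap5*, a microtubule polymerase, within 372 to 451 CPM. The minus-end genes *Camsap2* and *Camsap3* stood at 429 and 4.67 CPM in wild type replicate 3 and at no more than 167 and 1.33 CPM elsewhere. Severing and tubulin-modifying enzymes (14 of 14 tested) were split 7 and 7, and 8 above and 6 below without wild type replicate 3. *Spast*, the severing enzyme spastin, had 111 to 183 CPM, and *Katnal1*, a katanin subunit, had 62.5 to 129 CPM, both highest in wild type replicate 3. *Vash1*, a tubulin detyrosinase, was lowest there at 169 CPM against 278 to 491 CPM, and *Ttll1*, a polyglutamylase subunit, ranged from 15.6 to 30.6 CPM.

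Kinases and their partners (15 of 15 tested, 8 above 0 and 7 below, or 9 and 6 without wild type replicate 3) included *Gsk3b*, a tau kinase, with 209 to 340 CPM, and *Pafah1b1*, the gene of LIS1, with 358 to 547 CPM. *Cdk5r1*, the activator p35 of the neuronal kinase *Cdk5*, was at 52.3 CPM in wild type replicate 3 and 57.2 CPM in *Ythdf2-/-* replicate 2 and at 18.5 to 29.6 CPM elsewhere. The second activator gene, *Cdk5r2*, had 0.685 to 1.48 CPM. Of the growth cone genes 11 of 13 were tested, with 4 above 0 and 7 below, which turned to 9 and 2 without wild type replicate 3 (median −0.16 and 0.12). The most abundant was *Marcks* with 684, 687 and 1159 CPM in wild type and 1035, 1339 and 878 CPM in *Ythdf2-/-*, so that wild type replicates 1 and 2 were the lowest libraries, as for *Mapt*. Its log2 fold change was 0.36 ± 0.289 with 6 libraries and 0.66 ± 0.203 with 5 (adjusted p = 0.229). *Marcksl1*, *Dpysl4* and *Ina*, a neuronal intermediate filament gene, were highest in wild type replicate 3, with 554, 85.3 and 25.4 CPM. Over the 84 genes, wild type replicate 3 was at least 2-fold above each other library for 6 and at least 2-fold below for 4, beside 4.16% and 7.05% of all genes.

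Markers of the cell types that neurospheres can hold were read beside these results, as summed CPM of each list. Of 10 neuronal markers outside the cytoskeleton, 10 were detected and 7 were highest in wild type replicate 3. Their sum was 497 CPM there and 196 to 408 CPM elsewhere, with the second highest value in *Ythdf2-/-* replicate 2. Most of the sum in *Ythdf2-/-* replicate 2 was *Nsg2*, named after its values were seen. *Nsg2* had 310 CPM in that library, 198 CPM in wild type replicate 3 and 108 to 156 CPM elsewhere. *Rbfox3*, the gene of NeuN, had 11.8 CPM in wild type replicate 3 and 3.04 to 4.43 CPM elsewhere, and *Elavl3* had 155 CPM against 30.4 to 48.0 CPM. The 8 inhibitory lineage genes summed to 90.8 CPM in wild type replicate 3 and 32.7 to 59.3 CPM elsewhere, led by *Gad1* with 82.0 CPM against 29.6 to 55.3 CPM. *Gad2* had 0.770 to 1.65 CPM over the 6 libraries, with *Dlx5* and *Dlx6os1* at 0 reads in all libraries. The 9 excitatory lineage genes summed to 16.7 CPM and 3.66 to 12.1 CPM, with *Neurod1* at 4 to 12 reads, *Neurod2* at 10 reads in wild type replicate 3 and 0 elsewhere, and *Slc17a6* at 0 in all. Most of the sum in wild type replicate 3 was *Bcl11b*, named after its values were seen, with 12.4 CPM in wild type replicate 3, 7.11 CPM in *Ythdf2-/-* replicate 2 and 1.77 to 2.73 CPM elsewhere.

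The 7 proliferation genes were all lowest in wild type replicate 3, where they summed to 125 CPM against 1675 to 2496 CPM elsewhere. Among the other 5 libraries the sum was 2496 and 2215 CPM in wild type and 1675, 1979 and 1897 CPM in *Ythdf2-/-*. Without wild type replicate 3 the genotypes thus did not overlap for the sum of this list. Of all single genes, 20.1% were lower in *Ythdf2-/-* in this way. Within the list *Mki67* and *Ccnb1* overlapped, and the other genes were lower without overlap. The part of proliferation in the genotype differences of the 10 genes was not tested. *Mki67* had 9.98 CPM in wild type replicate 3 and 554 to 698 CPM elsewhere, and *Top2a* had 6.96 CPM against 447 to 718 CPM. The 9 neural progenitor genes, which define the labelled cell type, were present in every library, with a sum of 3469 CPM in wild type replicate 3 and 4851 to 6548 CPM elsewhere. In wild type replicate 3, 6 of the 9 were highest and 3 were lowest. *Nes* was lowest in wild type replicate 3, at 264 CPM against 725 to 1212 CPM, while *Sox2* was highest there, at 551 CPM against 316 to 426 CPM. The 8 astrocyte genes summed to 13173 CPM in wild type replicate 3 and to 4107 to 10553 CPM elsewhere, with 3 of the 8 highest there. *Gfap*, an astrocyte filament gene, had 3046 CPM there and 5.55 to 625 CPM elsewhere, and *Aqp4* had 1107 CPM against 54.8 to 225 CPM, whereas *Slc1a3*, named after its values were seen, had 1872 CPM against 1407 to 3743 CPM. The 10 oligodendrocyte lineage genes summed to 3648 CPM and 1582 to 1905 CPM, with *Mbp* at 573 CPM against 1.21 to 8.85 CPM and *Olig1* and *Olig2* lowest there. Mesenchymal and pericyte genes summed to 32.7 CPM there and 1.33 to 5.37 CPM elsewhere, with *Col1a1* at 0 to 8 reads and *Col1a2* at 0 to 2 reads. The pericyte gene *Pdgfrb*, named after its values were seen, made up 31.8 CPM of the sum in wild type replicate 3. Microglia and macrophage genes summed to 2.81 to 4.67 CPM in the 6 libraries, with *Aif1* at 0 or 1 read, *Cx3cr1* at 3 to 12 reads and *C1qa* and *C1qb* at 0 in all. Endothelial genes summed to 1.01 to 3.51 CPM, with *Cldn5* at 0 in all and *Pecam1* at 0 to 4 reads. The neuronal, oligodendrocyte and proliferation sums and *Gfap*, *Aqp4* and *Pdgfrb* moved with *Dcx*, *Map1b* and *Stmn1* in wild type replicate 3, and their part in the result was not tested.

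**Figure D5:**
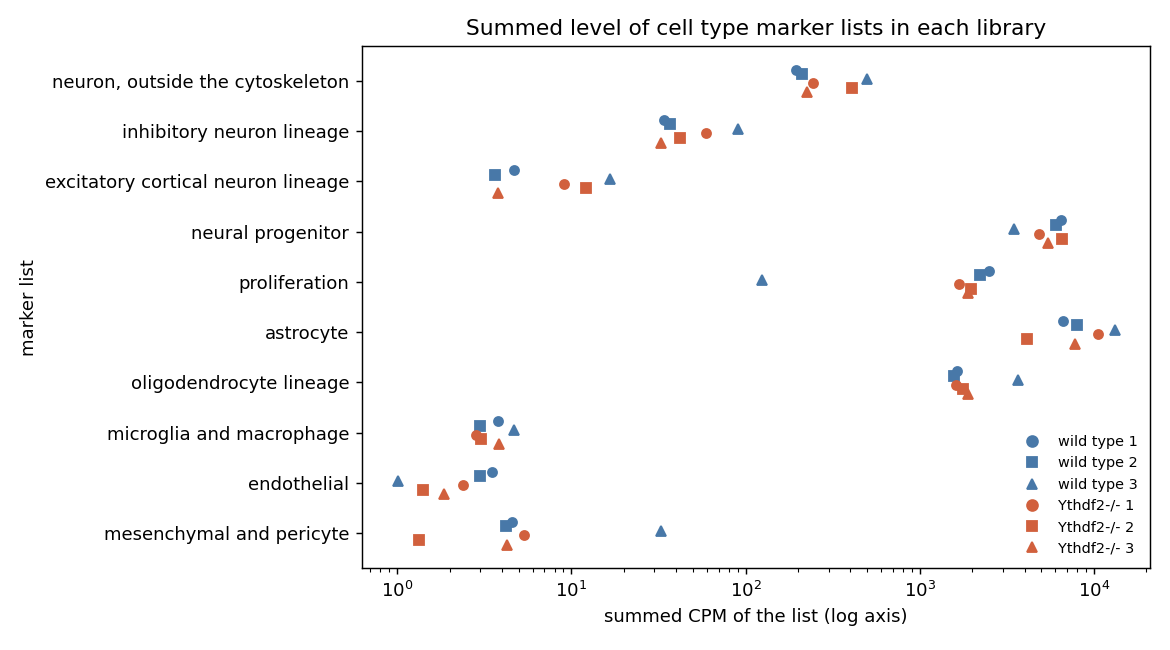
Summed CPM (log axis) of 10 cell type marker lists in each library, with symbols for genotype and replicate. In wild type replicate 3 (blue triangles) the proliferation list stood at 125 CPM, far below 1675 to 2496 CPM elsewhere, and the neuronal and oligodendrocyte sums stood above the other libraries, as did the mesenchymal and pericyte sum, nearly all of it from *Pdgfrb*.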

How the data were processed

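Groups came from the sample labels. The 6 of 12 samples with processed files were input RNA-seq libraries. For each library the authors deposited raw counts, whole reads per gene without normalization, and a second table whose expected counts, the authors' estimates, summed to 1.97% to 2.40% of the raw counts. That table lists *Ythdf2* at 0 in every wild type library, where the raw counts hold 840 to 999 reads. Its expected counts, compared as the log2 ratio of group mean CPM + 1, are therefore given as a weak alternative only. Its TPM and FPKM columns were not used, but its gene lengths, as the median over libraries, were the lengths behind RPKM. Per the methods, a stranded kit and TopHat on mm10 were used. The submitters' processing notes list Bowtie2 2.2.9, RSEM 1.2.15 and featureCounts, without roles. Strand setting and treatment of multiply mapped reads are not given in the sources used here.

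Counts were fitted with edgeR 4.0.16 (TMM, filterByExpr, glmQLFit robust, glmQLFTest; R 4.3.3) on genotype alone, and p-values were adjusted by Benjamini-Hochberg over 13112 genes. CPM for levels were TMM-scaled. The log2 CPM behind the correlations and the distances of wild type replicate 3 used a prior count of 2, which was not set in the fits. DESeq2 1.42.0 and limma 3.58.1 (voom with quality weights) were alternatives, with 14 settings in all. The fits were first tested on simulated data. Other steps used Python 3.11.15, numpy 2.4.6, pandas 2.3.3 and scipy 1.17.1. Positions, promoters and exons came from RefSeq on GRCm38.p6, and transcripts from GENCODE M21 (12288 genes).

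The 10 genes and all gene lists were chosen with earlier results of these data known. Named genes were the 10, *Ythdf2*, the 5 most like *Dcx*, the 2 most abundant and the 2 with the largest absolute log2 fold change in each of 7 pathway lists, and the first 2 of each of 10 marker lists. Marker genes at 0 in all libraries and the calls of limma-voom were named after their values were seen. So were *Mbp*, *Slc1a3*, *Pdgfrb*, *Bcl11b*, *Nsg2*, *Ccnb1*, *Tuba4a*, *Stmn3* and *Rtn4rl1*. The study's text calls the libraries biological replicates, the labels do not tie them to embryos, and Y-linked reads were present in some libraries of each group and near 0 in others. P-values measure the spread between these samples, and with 3 against 3 an exact permutation test of 1 gene could not go below 0.1. No pair of libraries agreed within sampling noise (chi-square per degree of freedom 4.57 to 140). Wild type replicates 1 and 2 were the closest pair, at 4.57, and the next closest, *Ythdf2-/-* replicates 1 and 3, had 22.5. Without wild type replicate 3 the wild type spread rests on that closest pair alone. Whether it stands for separate embryos cannot be told from the labels. The depth was 11029827 to 13185778 counts, and intervals cover counting error only.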

Additional observations from a re-analysis of the deposited data

How the results depend on the processing

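The counts of called genes depended on the test. Against 0 higher and 0 lower with edgeR, DESeq2 gave 6 and 25 and quality-weighted limma-voom 333 and 299. One gene was lower (1) with DESeq2 size factors, with at least 10 counts in every library and with no filter, and 13 with a term for Y-linked reads. Leaving out 1 library gave 0 to 0 higher and 0 to 2 lower, the 2 without wild type replicate 3. Pathway genes were 5 higher and 2 lower with limma-voom and 0 to 0 when 1 library was left out. The median log2 fold change of the 10 genes, −0.32, was −0.0143 with the expected counts, and single left-out libraries gave −0.35 to −0.12, the latter without *Ythdf2-/-* replicate 3. That second table lists *Ythdf2* at 0 in all wild type libraries. In it *Dcx* had 4.44, 2.85 and 9.08 expected counts in wild type and 2.34, 7.74 and 6.20 in *Ythdf2-/-*, and *Map1b* had 10, 3 and 30 against 4, 4 and 4, so wild type replicate 3 was highest for both, with a smaller gap for *Dcx*. The cause was not tested. Over 14 alternatives the sign of the log2 fold change turned in 0 for *Dcx* and *Map1b*, 1 for *Dclk1*, *Rtn1* and *Tubb2b*, 2 for *Tubb3*, 3 for *Mapt*, 5 for *Map2* and 6 for *Stmn1*, while over the 13 that kept *Stmn2* it turned or reached 0 in 1.

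Same-numbered wild type and *Ythdf2-/-* libraries did not deviate together (correlations of −0.25, −0.24 and −0.39), and no library correlated best with its own number. With the replicate number as a block, 0 genes were called higher and 0 lower, the median of the 10 genes was −0.18, and *Dcx* and *Map1b* had log2 fold changes of −1.58 and −1.79. *Ythdf2* itself stood at −2.66 under the block, with an edgeR adjusted p of 1.0, against 0.0547 without it and 0.0173 to 0.0486 with the 4 alternative edgeR settings that kept all 6 libraries and had no block.

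Single log2 fold changes of pathway genes, none of them called, turned with the setting. With limma-voom, *Camsap2* stood at 0.12, *Camsap3* at 0.0139, *Ina* at 0.21, *Katnal1* at 0.0239, *Map7* at 0.36 and *Vash1* at −0.0621. With the Y-linked term, *Cdk5r1* stood at −0.0182, *Gsk3b* at −0.0327, *Tuba1c* at 0.0934 and *Tubb5* at 0.22, and *Tubb5* at 0.0343 with the replicate block. Leaving out 1 library moved *Camsap2* from −0.822 to 0.172, *Cdk5r1* from −0.191 to 0.969, *Dpysl4* from −1.80 to 0.0921, *Gsk3b* from −0.0905 to 0.277, *Ina* from −1.29 to 0.0607, *Katnal1* from −0.493 to 0.0798, *Map7* from −0.935 to 0.279, *Marcksl1* from −0.637 to 0.0159, *Tubb5* from −0.398 to 0.178 and *Vash1* from −0.0047 to 0.467. Depth limits *Stmn2*, with 1 to 19 reads a library.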
